A study of Homo sapiens with 12 samples.

Results

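MicroRNAs (miRNAs) are short RNAs that guide Argonaute proteins to messenger RNAs and lower their output. A miRNA is cut from a hairpin precursor, its 5p and 3p arms are named after the side of the hairpin they come from, and bases 2 to 8, the seed, do most of the pairing with targets. Names are numbered in order of registration, so a high number marks a late entry. Late entries came largely from deep sequencing, many are scarce, and several have been discussed as pieces of transfer RNA, small nuclear RNA or ribosomal RNA. The miRNAs described here are the late-numbered ones with measurable counts, namely those with a number of 1200 or more in the name and at least 30 raw counts summed over all libraries. They are 75 of the 1636 mature miRNAs in the count table. They were chosen by these summed counts, so their abundance is given as a description, with no test.

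Small RNA was sequenced from extracellular vesicles, the membrane-bound particles that cells shed, of 6 established human intestinal cancer lines, with 2 libraries per line. The lines were RCM-1, SW1116, HT55, Hutu80, Car-1 and MDST8, none of which carries a treatment or engineered allele in the labels. Each was cultured in DMEM/F12 with fetal bovine serum, penicillin and streptomycin, and vesicles were taken by ultrafiltration and size-exclusion chromatography. The series speaks of 2 molecular subtypes but no label used here ties a line to one, so only lines were compared. Separate cultures are not stated for the 2 libraries of a line, so a p-value here reflects only how those libraries vary, and that variation may be technical. Each group is a single line, and serum vesicles in the medium are a possible second source of RNA.

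The shallowest library, Hutu80 replicate 1, held 71831 counts and the deepest, SW1116 replicate 1, held 622800 (8.67 times as many). Of 6 miRNAs typical of gut epithelium, none was at 0 in any line, and their summed share of counts ran from 0.424% to 0.510% in MDST8 and from 8.56% to 12.03% in RCM-1. Of 9 miRNAs typical of blood and serum, the summed share was 0.594% to 0.684% in Car-1, 0.512% to 0.606% in HT55, 0.440% to 0.586% in Hutu80, 0.256% to 0.355% in RCM-1, 0.195% to 0.230% in MDST8 and 0.145% to 0.203% in SW1116. Among these only miR-144-3p was at 0, in MDST8, SW1116 and RCM-1. A list of 7 stromal and muscle miRNAs stayed between 0.0212% and 0.0973%, with miR-214-3p at 0 in 4 lines.

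Mature sequences were found in RefSeq (GRCh38.p14) for 63 of the 75 miRNAs. Those shown are the most abundant ones and the ones that set single lines apart, written 5′ to 3′ with the seed in capitals.
miR-1246: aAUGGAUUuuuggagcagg
miR-1290: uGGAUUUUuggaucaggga
miR-1307-3p: aCUCGGCGuggcgucggucgug
miR-1247-5p: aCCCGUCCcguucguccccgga
miR-1247-3p: cCCCGGGAacgucgagacuggagc
miR-4443: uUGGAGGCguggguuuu
miR-1275: gUGGGGGAgaggcuguc
miR-1303: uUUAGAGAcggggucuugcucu
miR-1269b: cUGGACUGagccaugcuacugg
miR-3937: aCAGGCGGcuguagcaauggggg
miR-10397-5p: uCCUUGACcugaugcuguaggg
miR-3180-5p: cUUCCAGAcgcuccgccccacgucg
miR-3180-3p: uGGGGCGGagcuuccggaggcc
miR-1260a: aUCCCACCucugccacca
miR-1260b: aUCCCACCacugccaccau
miR-4454: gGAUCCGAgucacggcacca
miR-7977: uUCCCAGCcaacgcacca
miR-5100: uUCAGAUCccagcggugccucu
miR-7704: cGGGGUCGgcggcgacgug
miR-4485-3p: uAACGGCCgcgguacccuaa

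The sequences of these late entries were richer in G and C than those of the other miRNAs with the same minimum. The median GC content was 60.0% over 63 late-numbered miRNAs (22.7% to 88.9%) and 47.8% over the 298 others with a sequence. Median lengths were 21 and 22 bases. The seed UCCCACC was shared by miR-1260a and miR-1260b, which differ by U9A (counted from the 5′ end of miR-1260a) and by the last base, so reads could be split between them. miR-1268a and miR-1268b hold no substitution over their shared length. miR-1269b differs from miR-1269a by G13A (counted from the 5′ end of miR-1269a), yet had 640 summed counts against 24. miR-1246 and miR-1290 match in 16 of 17 overlapping bases when offset by 2. miR-3178 shares the seed GGGCGCG with miR-10394-3p, and miR-4429 shares AAAGCUG with miR-320b, miR-320c and miR-320d.

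Several of these sequences also occur in other abundant RNAs. An exact match in 5216 small and ribosomal RNA transcripts of GENCODE release 29 was found for 4 of 63 late-numbered miRNAs (6.35%) and for 2 of 298 others (0.671%). Nuclear transfer RNAs were not among the transcript classes searched, so a match to them could not be found. The whole of miR-1246 is contained in U2 spliceosomal RNA (RNU2-1 and its copies, 19 transcripts). miR-4485-3p is contained in the mitochondrial 16S ribosomal RNA gene MT-RNR2, miR-12136 in the mitochondrial serine transfer RNA MT-TS1 and miR-1843 in the small Cajal body RNA SCARNA3. Mature transfer RNAs end in CCA, and 5 of 63 late-numbered miRNAs (7.94%) ended on the mature strand in CCA or in CCA and 1 further base, namely miR-1260a, miR-1260b, miR-4454, miR-7977 and miR-1306-5p. The share was 1.34% among the 298 others and 6.03% among all 2370 mature human sequences of the table. The deposited counts cannot tell such a fragment from a miRNA of the same sequence.

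At the level of the genome, 30 of the 63 with an entry lie in a protein-coding gene on its own strand and 12 in no annotated gene. miR-1307-3p (chr10:103394253-103394401) comes from an exon of at least 1 transcript of ATP5MD, which encodes a subunit of the mitochondrial ATP synthase. miR-1306-3p lies in an exon of DGCR8, the partner of Drosha in hairpin cutting, and miR-1301-3p in an intron of the DNA methyltransferase gene DNMT3A. miR-1247 (chr14:101560287-101560422) overlaps an exon of DIO3OS, a non-coding gene in the imprinted DLK1-DIO3 region. miR-1246 (chr2:176600980-176601052), miR-4443, miR-5100, miR-1275, miR-1303 and miR-3937 lie in no annotated gene. The miR-3180 hairpin has 3 copies on chromosome 16, and 6 of the 63 miRNAs with an entry have a hairpin on that chromosome.

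The 75 miRNAs took 54661 of 3141138 counts, or 1.74%. miR-1246 alone held 52.4% of these counts, and together with miR-1307-3p, miR-1290 and miR-1247-5p it held 78.3%. The median of summed counts was 78, against 362 for the 331 other miRNAs with the same minimum, and 41 of 75 stayed under 100. Just inside the minimum were miR-1268a, miR-1273h-5p and miR-3144-3p (32 counts each), miR-1468-5p (31) and miR-1306-5p (30). Just outside were miR-6892-5p (29), miR-1226-5p, miR-1266-5p and miR-1285-3p (28 each), and miR-1285-5p, miR-1287-5p and miR-9985 (27 each). A further 527 late-numbered miRNAs had counts below the minimum, 2501 in all, and 305 had none. Because raw counts were summed, deep libraries weighed most in the choice.

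Vesicles of HT55 gave the largest share of late-numbered miRNAs and those of SW1116 the smallest. The share of counts was 5.51% and 4.91% in the HT55 libraries, 2.52% and 4.35% in Hutu80, 2.60% and 2.64% in Car-1, 1.34% and 1.88% in MDST8, 0.805% and 0.941% in RCM-1 and 0.584% and 0.743% in SW1116. Both HT55 libraries lay above the other 10 and both SW1116 libraries below them, while the libraries of Hutu80 and Car-1 overlapped. Line means were 5.21% ± 0.42 (SD, n = 2) in HT55, 3.43% ± 1.30 in Hutu80, 2.62% ± 0.028 in Car-1, 1.61% ± 0.38 in MDST8, 0.873% ± 0.096 in RCM-1 and 0.664% ± 0.113 in SW1116. The exact 95% binomial intervals of the 2 libraries overlapped in Car-1 (2.53% to 2.68% and 2.56% to 2.73%) and in no other line. In Car-1 the summed share thus differed by no more than counting error, but its parts moved in opposite directions. From replicate 1 to replicate 2 of Car-1, miR-1246 rose from 0.447% to 0.655% of counts. Meanwhile the other late-numbered miRNAs fell from 2.16% to 1.99%. Overlap of the summed shares therefore does not show that single miRNAs agreed between the Car-1 libraries. The 3 lines with the highest shares also had the highest summed share of blood and serum miRNAs, and whether serum had a part in the result was not tested.

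**Figure D1:**
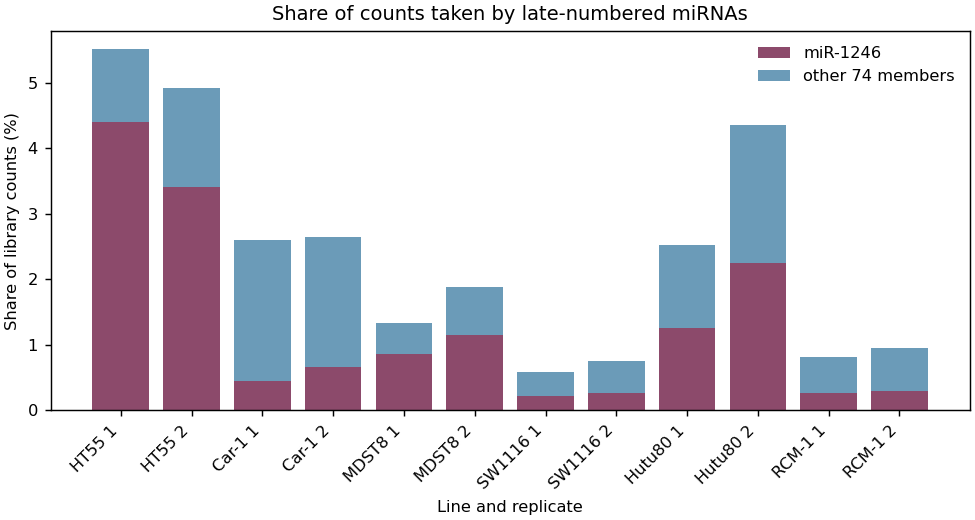
Share of library counts (%, vertical axis) taken by miR-1246 (lower, purple part of each bar) and by the other 74 late-numbered miRNAs (upper, blue part) in each of the 12 libraries. The HT55 bars are mostly miR-1246, whereas the Car-1 bars are mostly the other miRNAs.

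Without miR-1246 the order of the lines changed. The other 74 miRNAs took 2.07% ± 0.119 (SD, n = 2) of counts in Car-1, 1.68% ± 0.590 in Hutu80, 1.31% ± 0.286 in HT55, 0.607% ± 0.182 in MDST8, 0.592% ± 0.0771 in RCM-1 and 0.423% ± 0.0806 in SW1116. The libraries of Car-1 (2.16% and 1.99%), Hutu80 (1.27% and 2.10%) and HT55 (1.10% and 1.51%) lay above those of the other 3 lines. Among these 3 lines, Car-1 did not differ from Hutu80, nor Hutu80 from HT55, beyond the spread of their libraries.

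Detection was widest in Car-1. At least 1 count was present for 70 and 73 of 75 miRNAs in the Car-1 libraries, 69 and 67 in SW1116, 66 and 63 in MDST8, 58 and 70 in RCM-1, 55 and 64 in HT55 and 52 and 61 in Hutu80. Depth differed, so the number expected if each library held only 71831 counts was computed from the hypergeometric formula. At that depth Car-1 kept 60.2 and 65.2 miRNAs, Hutu80 52.0 and 57.1, HT55 48.7 and 55.7, RCM-1 48.4 and 53.1, MDST8 49.7 and 50.9 and SW1116 47.5 and 48.1. Both Car-1 values stayed above all others, while SW1116, among the highest as sequenced, became the lowest. Of the 331 other miRNAs with the same minimum, the Car-1 libraries held 323 and 317 as sequenced. SW1116 held 324 and 301, and the other lines 283 to 314. Equal-depth numbers were not computed for these, so whether wide detection in Car-1 is particular to late-numbered miRNAs was not tested. A miRNA without a count in the shallowest library could still make up to 41.8 CPM there (the level of 3 counts), against 4.82 CPM in the deepest, where CPM stands for counts brought to the same library total. All 12 libraries held 30 of the 75 miRNAs (40.0%), against 231 of 331 others (69.8%). Only 5 were seen in 6 libraries or fewer, and miR-10397-5p was seen in the fewest, 3.

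**Figure D2:**
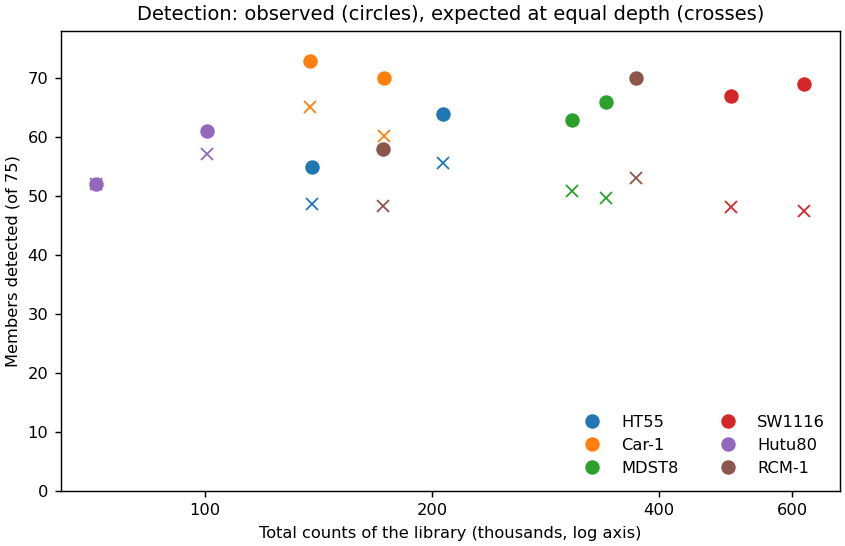
Number of the 75 late-numbered miRNAs with at least 1 count (vertical axis) against the library total (log axis), coloured by line. Circles are observed numbers and crosses the numbers expected at 71831 counts; the Car-1 crosses, at 60.2 and 65.2, are the highest.

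To ask which of these miRNAs differed between lines, all miRNAs that passed a filter on low counts were fitted together with edgeR. Of the 75, 48 passed the filter (about 52.7 CPM in at least 2 libraries) and 27 were too scarce to test. For 7 of the 48 the libraries at that level all came from 1 line (miR-3937 in HT55, miR-10527-5p and miR-10397-5p in Car-1, miR-3609 and miR-10395-3p in MDST8, miR-3180-5p and miR-3180-3p in Hutu80). These had to differ, so no p is given for them in that line. Some others would have failed the filter without 1 line, among them miR-3178 (Car-1) and miR-4485-3p (MDST8). For these 2 no p is given in that line either. Counts over the tested miRNAs, which include all of these, are descriptions only. Across the 6 lines 31 of 48 passed an adjusted p of 0.05 (64.6%; 33 had an unadjusted p below 0.05), close to the 68.2% of all 318 tested miRNAs. The smallest adjusted p-values of the quasi-likelihood F-test were those of miR-1247-5p (1.51e-11), miR-1246 (2.2e-10), miR-4443 (4.08e-10), miR-1303 (1.07e-09) and miR-1269b (2.15e-09). miR-1301-3p and miR-1307-5p were among those not called (adjusted p = 0.601 and 0.674).

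Each line was then compared with the mean of the other 5. In HT55, 13 of the 48 were higher and 2 lower, beside 13.8% and 10.4% of all 318. In Car-1, 17 were higher and 4 lower (21.1% and 13.5% of all). In Hutu80, 16 were higher and 3 lower (23.0% and 16.7%). MDST8 had 5 higher and 11 lower (22.0% and 22.3%), SW1116 2 higher and 11 lower (17.6% and 16.7%), and RCM-1 6 higher and 6 lower (21.1% and 14.8%). The median log2 difference of the 48 was 1.07 in Car-1 and -0.87 in MDST8, beside 0.02 and -0.32 over all tested miRNAs. It was 0.44 in HT55, 0.34 in Hutu80, -0.27 in RCM-1 and -0.62 in SW1116, beside -0.08, 0.09, -0.12 and -0.22 over all.

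Single libraries moved several of these counts. Without HT55 replicate 2, HT55 had 7 higher and 0 lower. The 13 calls in SW1116 became 4 without either SW1116 library, 7 without HT55 replicate 2 or RCM-1 replicate 2 and 8 without Hutu80 replicate 1. In Hutu80 the 19 calls became 11 without its replicate 1 and 7 without its replicate 2, in RCM-1 the 12 became 5 and 7, and in MDST8 the 16 became 10 without its replicate 1. Scaling also shifted the split: by library totals alone the median of all miRNAs moved by 0.63 in Car-1, -0.66 in SW1116 and 0.35 in Hutu80, and SW1116 then had 0 higher and 16 lower. With limma on the deposited log2 values HT55 had 6 higher and 6 lower, and RCM-1 2 higher and 7 lower. Of the 96 calls, 36 were kept under all 20 alternatives, and unless a loss is given beside them the calls described below are among these. The 36 include miRNAs that passed the filter through the called line alone, such as miR-3937 in HT55. Fits without 1 library kept the filter set on all 12 libraries, so for such miRNAs a kept call is no added support.

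**Figure D3:**
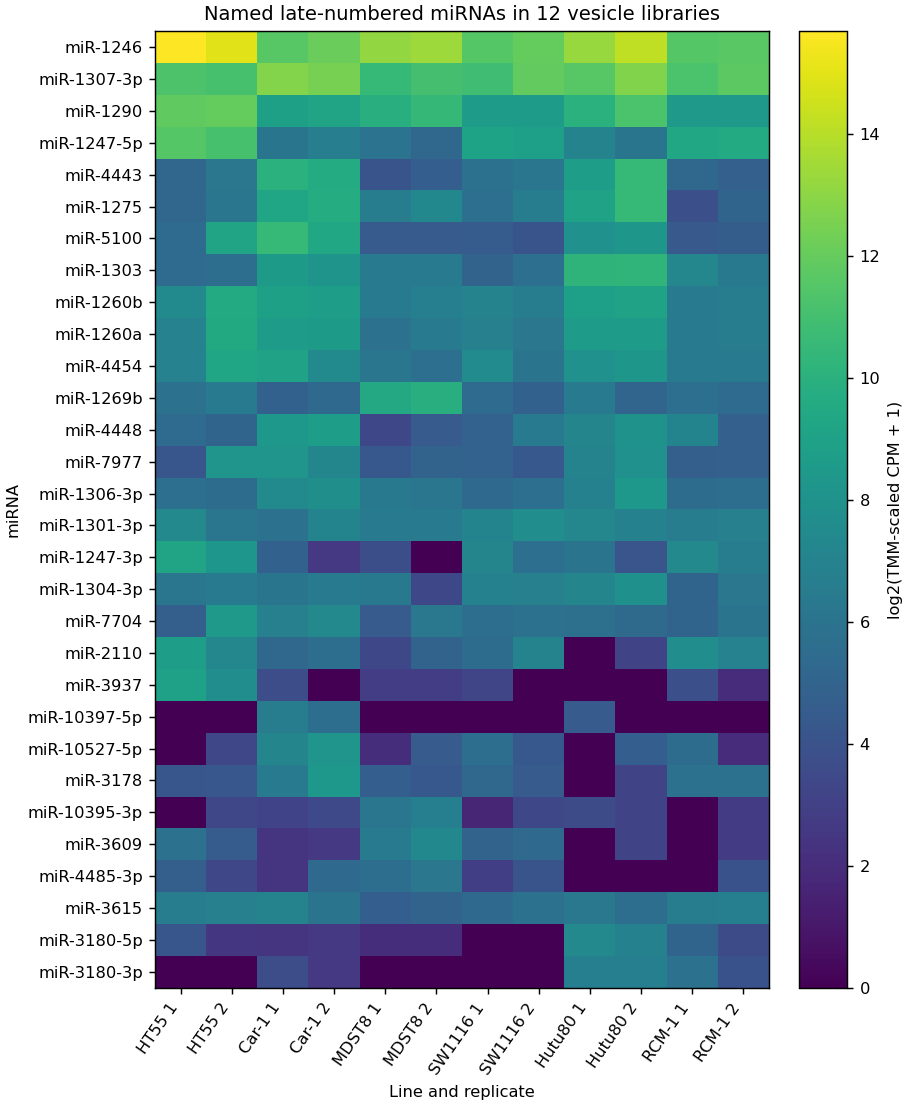
Levels of the 30 late-numbered miRNAs named by rule in the 12 libraries, as log2(scaled CPM + 1) on the colour scale, with miRNAs in rows and libraries in columns. miR-1246 is the brightest row in all libraries but both of Car-1 and RCM-1 replicate 2, where miR-1307-3p is brighter, and the lower rows show miRNAs seen mainly in 1 line.

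miR-1246, which matches U2 RNA as shown above, was highest in HT55. CPM are given from here on after scaling by trimmed-mean (TMM) factors. Its levels were 52907 and 32608 CPM in HT55, 9801 and 18933 in Hutu80, 9223 and 10981 in MDST8, 3126 and 4494 in Car-1, 3018 and 4092 in SW1116 and 3003 and 3230 in RCM-1. Both HT55 libraries lay above all others, while Car-1, SW1116 and RCM-1 overlapped. The log2 difference of HT55 from the other lines was 2.90 ± 0.21 (SE; adjusted p = 4.83e-11). It fell by 1.63 ± 0.28 in RCM-1 (7.14e-05) and by 1.40 ± 0.28 in SW1116 (0.000319). Hutu80 was 1.01 ± 0.23 higher (0.001), but its adjusted p was 0.694 without Hutu80 replicate 2, 0.0802 without HT55 replicate 2 and 0.0636 without Car-1 replicate 1. The lower level in Car-1 (-1.28 ± 0.28, 0.000751) lost its call without Car-1 replicate 1 (0.0648).

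miR-1290, nearly the same sequence shifted by 2 bases, followed a like order over the lines. It stood at 3678 and 3962 CPM in HT55, 1047 and 2402 in Hutu80, 937 and 1390 in MDST8, 478 and 578 in Car-1, 385 and 394 in SW1116 and 339 and 342 in RCM-1. HT55 was again above all other libraries (2.50 ± 0.23, adjusted p = 5.3e-09) and RCM-1 below all of them (-1.69 ± 0.32, 0.000164). It was also lower in SW1116 (-1.45 ± 0.30, 0.000575). Because the sequences overlap, the 2 levels may not be independent readings, and whether reads were shared between them was not tested.

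miR-1247-5p had the smallest p-value across the lines, and by line mean both arms of its hairpin were highest in HT55 and lowest in MDST8. The 5p arm stood at 2951 and 2210 CPM in HT55, 645 and 787 in RCM-1, 554 and 459 in SW1116, 131 and 67.0 in Hutu80, 68.8 and 105 in Car-1 and 63.3 and 37.6 in MDST8. It thus fell into 3 levels, with HT55 alone at the top and Hutu80, Car-1 and MDST8 at the bottom. The log2 difference was 3.90 ± 0.25 in HT55 (adjusted p = 4.95e-12), 1.68 ± 0.27 in RCM-1 (2.53e-05) and -2.90 ± 0.39 in MDST8 (1.05e-06), with -1.98 ± 0.37 in Car-1 and -1.78 ± 0.40 in Hutu80 also called. The higher level in SW1116 (1.08 ± 0.28, 0.00377) lost its call without SW1116 replicate 1 (0.0614), by library totals (0.248) and in limma (0.323). The 3 lines with the most miR-1247-5p also held the most of the gut epithelial miRNAs, whose summed share was 9.73% to 9.91% in HT55, 8.56% to 12.03% in RCM-1, 6.32% to 6.68% in SW1116 and at most 4.16% elsewhere; their part in the result was not tested.

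The 3p arm of miR-1247 stood at 580 and 301 CPM in HT55 and 163 and 94.3 in RCM-1. It reached 138 and 53.1 CPM in SW1116, 65.4 and 16.7 in Hutu80, 28.3 and 4.98 in Car-1 and 12.7 and 0 in MDST8. The MDST8 libraries thus overlapped those of Car-1. For the 3p arm the log2 difference was 3.61 ± 0.49 in HT55 (adjusted p = 2.45e-06) and -3.60 ± 0.85 in MDST8 (0.00124). The 5p arm made up 85.3% of the counts of the hairpin over all libraries, and from 71.4% in Hutu80 (exact 95% interval 51.3% to 86.8%) to 88.9% in MDST8 (73.9% to 96.9%). The arm ratio of miR-1247 did not differ detectably between lines at this depth.

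Other hairpins showed both arms. For miR-1307 the 3p arm was nearly everything, with 91 counts on the 5p arm (0.957%) and 9413 on the 3p arm. miR-1306 gave 10.3% and miR-3065 77.5% on the 5p arm. miR-1304, from an exon of TAF1D, had 60.0% on the 5p arm in MDST8 (exact interval 47.6% to 71.5%, 42 counts on 5p and 28 on 3p) and 14.6% in Hutu80 (6.07% to 27.8%, 7 and 41 counts). miR-3613 had 89.2% in MDST8 (74.6% to 97.0%, 33 and 4 counts) and 30.8% in RCM-1 (9.09% to 61.4%, 4 and 9 counts). In MDST8 the 3p arm of miR-1304 went from 25 counts in replicate 1 to 3 in replicate 2, so this value differs between its own libraries. The higher level of miR-1304-3p in Hutu80 (142 and 234 CPM; adjusted p = 0.0368) rests on thin evidence. Its call ended in 12 of 20 alternatives, with adjusted p up to 0.549 without Hutu80 replicate 2.

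miR-3937 was seen mostly in HT55. It had 59 and 44 counts in HT55 and at most 4 in any other library, with 0 in both Hutu80 libraries. Scaled levels were 511 and 204 CPM in HT55 and 0 to 13.0 elsewhere, so HT55 held 92.7% of the sum of the line means. It passed the filter through HT55 alone, so these levels are a description, with no test.

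HT55 also had higher miR-2110, from an exon of the host gene CCDC186. Its levels were 441 and 153 CPM in HT55, 208 and 121 in RCM-1, 46.7 and 128 in SW1116, 36.4 and 49.8 in Car-1 and 9.49 and 31.3 in MDST8. In Hutu80 it had 0 and 1 count. The pooled unscaled level in Hutu80 was 0.0686 times that of the other lines (95% counting interval 0.00173 to 0.386). A separate estimate, the edgeR contrast on scaled counts, called miR-2110 lower there (adjusted p = 0.0067). The call in HT55 (6.67e-05) was lost without HT55 replicate 1 (0.0527), and that in RCM-1 (0.00542) without RCM-1 replicate 1 (0.114).

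**Figure D4:**
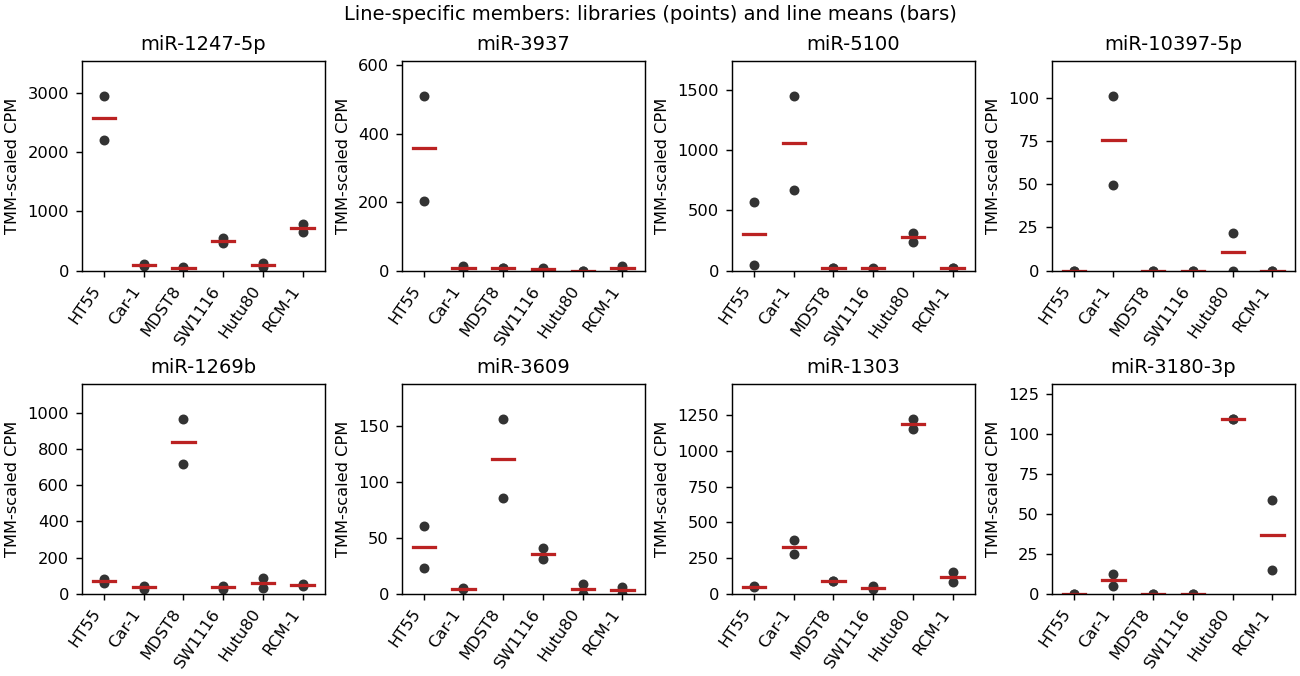
Scaled CPM (vertical axis, own scale per panel) of 8 late-numbered miRNAs in the 6 lines; points are libraries and red bars line means of 2. In each panel 1 line lies above the others, such as HT55 for miR-3937 (511 and 204 CPM) and MDST8 for miR-1269b (718 and 967 CPM).

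Car-1 vesicles were richest in a wide group of these miRNAs. miR-5100 reached 1450 and 673 CPM in Car-1, 240 and 310 in Hutu80, 43.3 and 565 in HT55 and 15.6 to 23.6 in the other 6 libraries. Both Car-1 libraries lay above all others (4.11 ± 0.42, adjusted p = 2.69e-07). The remaining calls of miR-5100, in all other 5 lines, each ended when 1 library was left out.

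miR-10397-5p, from an exon of the ubiquitin ligase gene MARCH6, was nearly confined to Car-1. It had 25 and 10 counts there, 2 in Hutu80 replicate 1 and 0 in the other 9 libraries. Car-1 held 88.6% of the sum of line means. It passed the filter through Car-1 alone, and its levels are given with no test.

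miR-10527-5p, also without a test for the same reason, had 138 and 289 CPM in Car-1 and 0 to 49.0 elsewhere. miR-3178 had 93.1 and 329 CPM in Car-1 and 0 to 58.9 elsewhere. Outside Car-1 only RCM-1 replicate 2 reached the filter level, at 53.7 CPM before TMM scaling, so the Car-1 level is given with no test. In both cases the Car-1 libraries stood above the other 10 but differed from each other by over 2-fold. miR-3178 was also lower in Hutu80, with 0 and 1 count (pooled and unscaled, 0.106 times the other lines, counting interval 0.00268 to 0.601). The edgeR contrast on scaled counts called it lower there (adjusted p = 0.0416). That call was lost in 5 alternatives, including DESeq2 (0.0917) and the fits without Hutu80 replicate 1 or 2 or SW1116 replicate 1.

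A further group was high in both Car-1 and Hutu80. miR-4443 stood at 1037 and 807 CPM in Car-1 and 425 and 1448 in Hutu80, against 15.8 to 74.1 in the other 8 libraries. miR-1275 stood at 636 and 847 CPM in Car-1 and 523 and 1431 in Hutu80, against 13.0 to 160 elsewhere. The libraries of Car-1 and Hutu80 overlapped for both, and lay above all those of the other 4 lines. For miR-4443 the log2 difference was 3.62 ± 0.32 in Car-1 (adjusted p = 3.74e-09), 3.66 ± 0.33 in Hutu80 (2.18e-09) and -2.93 ± 0.53 in MDST8 (6.57e-05). For miR-1275 it was 2.80 ± 0.33 in Car-1 (3.81e-07), 3.29 ± 0.33 in Hutu80 (1.37e-08) and -3.02 ± 0.55 in RCM-1 (0.00011). Both miRNAs are 17 bases long, among the shortest of the 63.

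miR-4448, in an intron of the pseudogene RPSAP31, had a related pattern, at 336 and 424 CPM in Car-1, 142 and 268 in Hutu80 and 9.49 and 21.9 in MDST8. It was higher in Car-1 (2.77 ± 0.44, adjusted p = 1.99e-05) and lower in MDST8 (-2.69 ± 0.68, 0.00224). Its call in Hutu80 (0.00867) was lost without any 1 of 5 libraries, with 0.409 without Hutu80 replicate 2.

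miR-1307-3p, the most abundant after miR-1246, was high in every line. Its levels were 6945 and 5645 CPM in Car-1, 3140 and 6629 in Hutu80, 2397 and 3365 in RCM-1, 1854 and 3845 in SW1116, 2570 and 2220 in HT55 and 1459 and 2110 in MDST8. Only the Car-1 difference (1.17 ± 0.25, adjusted p = 0.000798) held in every alternative run. The calls in MDST8 (-1.01 ± 0.30, 0.00739) and Hutu80 (0.73 ± 0.26, 0.0305) ended without MDST8 replicate 1 (0.138) and in 10 alternatives (up to 0.911 with no filter), respectively, and without Hutu80 replicate 2 the Hutu80 difference changed sign (-0.12). miR-1306-3p was higher in Car-1 (174 and 224 CPM; 0.0081) and Hutu80 (120 and 335 CPM; 0.0027), but not without Car-1 replicate 2 (0.124) or Hutu80 replicate 2 (0.664).

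MDST8 was set apart by miR-1269b, which lies opposite to an intron of ARHGAP44. It stood at 718 and 967 CPM in MDST8 and at 28.1 to 87.2 in the other 10 libraries, a log2 difference of 4.12 ± 0.31 (adjusted p = 7.42e-11). The lines other than MDST8 overlapped. The near copy miR-1269a had 24 counts in all libraries.

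miR-3609 and miR-10395-3p were also highest in MDST8. miR-3609 had 85.4 and 157 CPM there, 60.6 and 23.2 in HT55, 31.2 and 40.6 in SW1116 and 0 to 8.37 in the other lines. miR-10395-3p had 69.6 and 106 CPM in MDST8 and 0 to 10.9 elsewhere. Both passed the filter through MDST8 alone, so their levels are given with no test. miR-4485-3p, contained in mitochondrial ribosomal RNA, had 50.6 and 75.1 CPM in MDST8 and 0 to 39.9 elsewhere. Outside MDST8 only Car-1 replicate 2 reached the filter level, at 58.1 CPM before TMM scaling, so no p is given for MDST8. Its higher call in MDST8 was lost in DESeq2 and without MDST8 replicate 2, and miR-4485-3p did not pass across the 6 lines (adjusted p = 0.0508).

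Among the miRNAs lower in MDST8, miR-3615, from an exon of SLC9A3R1, had 25.3 and 31.3 CPM there and 40.1 to 130 elsewhere. Its call (-1.48 ± 0.58, adjusted p = 0.0407) ended in 13 of 20 alternatives, with values up to 0.2 without MDST8 replicate 1. It did not pass across the 6 lines (0.109).

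miR-1303 was highest in Hutu80. It stood at 1156 and 1222 CPM in Hutu80, 377 and 274 in Car-1, 150 and 79.6 in RCM-1, 85.4 and 90.8 in MDST8, 43.3 and 51.0 in HT55 and 31.2 and 53.1 in SW1116. Hutu80 lay above all (3.70 ± 0.28, adjusted p = 9.07e-11), with Car-1 next (1.46 ± 0.31, 0.000732). It was lower in SW1116 (-2.10 ± 0.41, 0.00029). The lower level in HT55 (-1.85 ± 0.45, 0.00284) lost its call without HT55 replicate 2 (0.064).

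The 5p arm of miR-3180 had 15 and 14 counts in Hutu80, 5 and 4 in RCM-1 and at most 2 in any other library. The 3p arm had 10 and 13 counts in Hutu80, 9 and 5 in RCM-1, 3 and 1 in Car-1 and 0 in HT55, MDST8 and SW1116. Hutu80, the shallowest line, thus had the most counts of both arms. Hutu80 held 81.6% of the sum of line means of the 5p arm. Both arms passed the filter through Hutu80 alone, so its higher level is described with no test, and so is the lower level of the 5p arm in SW1116, which had no count of it. miR-3180-3p was also called higher in RCM-1 (0.00535), but not without RCM-1 replicate 1 (0.118).

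SW1116 and RCM-1 held few marks of their own. miR-3065-5p, which lies on the strand opposite to miR-338, stood at 77.9 and 109 CPM in SW1116, 137 and 50.1 in RCM-1 and 97.2 and 74.7 in Car-1, against 0 to 31.3 in the other 6 libraries. The 3 lines overlapped, and before TMM scaling Car-1 (139 and 109 CPM) lay above SW1116 (56.2 and 70.2 CPM). It was called higher in SW1116 and RCM-1, with adjusted p of 0.0348 and 0.0484. The call in SW1116 ended by library totals (0.167), in DESeq2 (0.101), in limma (0.254) and without SW1116 replicate 1 (0.0898) or 2 (0.281) or RCM-1 replicate 2 (0.059). That in RCM-1 ended in 13 of 20 alternatives, with 0.495 without RCM-1 replicate 1. Its partner miR-338-5p had 215 counts in SW1116 and 101 in RCM-1 of 354 in all. Whether reads were assigned by strand is not given in the sources used here, but neither arm of miR-338 has the same sequence as miR-3065-5p. The other antisense pairs gave 6 counts of miR-3074-5p and 1 of miR-3120-3p, under the minimum.

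Of the miRNAs with CCA ends, miR-1260a, miR-1260b, miR-4454 and miR-7977 differed strongly between the 2 HT55 libraries, as did miR-5100 and miR-7704. The fifth with a CCA end, miR-1306-5p, had 0 and 6 counts. This grouping was not set in advance. Others also rose, such as miR-4286 (3 to 21 counts) and miR-4497 (8 to 40), or fell, such as miR-2110 (51 to 33). In raw counts from HT55 replicate 1 to replicate 2, miR-5100 went from 5 to 122, miR-7704 from 3 to 74, miR-1260a from 14 to 161, miR-1260b from 20 to 168, miR-4454 from 14 to 136 and miR-7977 from 2 to 63. The totals of these libraries, 138753 and 206808, differed far less. As CPM, replicate 2 was 16.4-fold higher for miR-5100, 16.5-fold for miR-7704, 7.72-fold for miR-1260a, 6.52-fold for miR-4454 and 5.64-fold for miR-1260b. For these 5 miRNAs the same ratio lay between 0.312 and 3.96 in the other lines. All 6 were called higher in HT55 (adjusted p from 0.00314 for miR-5100 to 0.0496 for miR-7977). Without HT55 replicate 2 none was, with adjusted p of 0.607 for miR-5100, 0.566 for miR-7704, 0.852 for miR-1260a, 0.998 for miR-1260b, 0.956 for miR-4454 and 0.391 for miR-7977. The difference of HT55 from the other lines then turned negative for all of them but miR-1260b, as far as -1.57 for miR-7977 (log2).

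**Figure D5:**
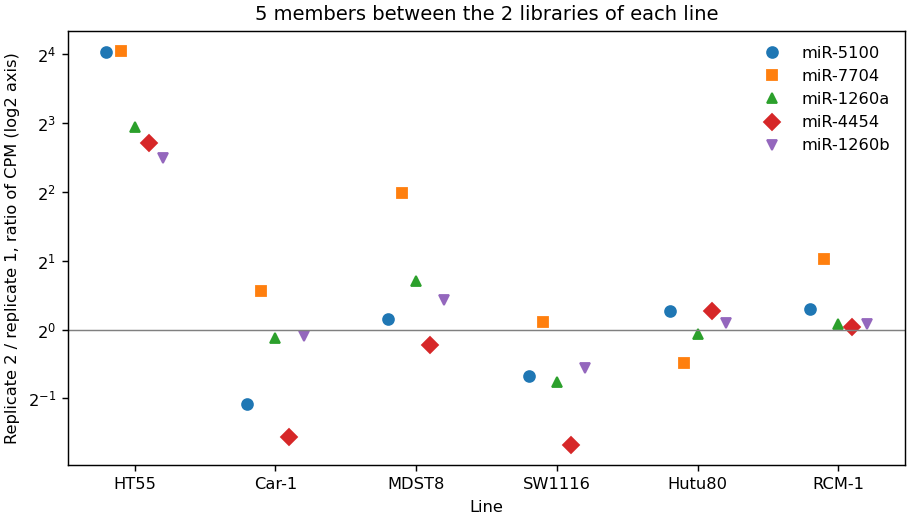
Ratio of CPM in replicate 2 to replicate 1 (log2 axis; the grey line marks equal levels) for 5 late-numbered miRNAs in each line. The 5 points lie between 5.64 and 16.5 in HT55 and between 0.312 and 3.96 in the other lines.

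In Car-1 and Hutu80 the levels of these miRNAs were steadier. miR-1260b stood at 482 and 443 CPM in Car-1 and 458 and 527 in Hutu80, against 88.6 to 127 in MDST8, SW1116 and RCM-1. miR-1260a stood at 413 and 374 CPM in Car-1 and 392 and 402 in Hutu80, against 60.1 to 114 in those 3 lines. Higher in Car-1 by 1.28 ± 0.35 (adjusted p = 0.00579), miR-1260b kept this call in all alternatives, and miR-1260a (1.27 ± 0.39, 0.0127) lost it without either Car-1 library (0.0653 and 0.053). The Hutu80 calls of miR-1260b (0.00347) and miR-1260a (0.0149) ended without either Hutu80 library, at 0.14 to 0.324. miR-4454 was at 522 and 174 CPM in Car-1. Its call there (0.0315) ended in DESeq2 (0.0897), with a replicate block (0.0618) and in 6 of the fits that left out 1 library. Without Car-1 replicate 1 its log2 difference was 0.36. miR-7977, at 296 and 144 CPM in Car-1, lost its call (0.00379) without the same library (0.139).

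In general the late-numbered miRNAs agreed less between libraries of a line than the other tested miRNAs. The median absolute log2 ratio between the 2 libraries was 0.95 in HT55, 0.88 in Hutu80, 0.61 in RCM-1, 0.55 in SW1116, 0.54 in Car-1 and 0.52 in MDST8 over the 48. Over the other 270 tested miRNAs it lay between 0.39 and 0.44. Their lower counts move with this difference, and the part of depth in it was not tested.

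Of a list of miRNAs discussed as lying in other abundant RNAs, 17 were among the 75 and 13 were tested, of which 9 passed across the lines, a share near the 68.2% of all tested miRNAs. Among the 13 only miR-1246 and miR-4485-3p had an exact match in the transcripts searched, and miR-3960, miR-3609 and miR-4286 had no sequence to search. The matched miR-1843 was not on the list. Of the 13, 8 were called higher and 1 lower in HT55 (13.8% and 10.4% of all tested), 7 higher and none lower in Hutu80 (23.0% and 16.7%) and 6 higher and 2 lower in Car-1 (21.1% and 13.5%). In SW1116 none was called higher and 7 lower (17.6% and 16.7%), in RCM-1 none higher and 5 lower (21.1% and 14.8%) and in MDST8 2 higher and 5 lower (22.0% and 22.3%). Median log2 differences of the 13 were 1.48, 1.01, 1.22, -1.16, -1.51 and -0.32 in that order of lines. Many of these calls ended in at least 1 of the 20 alternatives. In HT55 2 of 8 higher calls held in all of them (miR-1246 and miR-1290), in Hutu80 1 of 7 (miR-1275), in Car-1 3 of 6 (miR-5100, miR-1275 and miR-1260b) and in MDST8 1 of 2 (miR-3609, which passed the filter through that line alone). Of the lower calls, 3 of 5 held in RCM-1 (miR-1246, miR-1290 and miR-1275), 2 of 7 in SW1116 (miR-1246 and miR-1290) and none in HT55, Car-1 or MDST8. Without HT55 replicate 2, 6 of the 8 in HT55 ended, and without Hutu80 replicate 2, 6 of the 7 in Hutu80. Of a list of miRNAs within host genes, 18 were among the 75 and 10 were tested, and 3 passed across the lines, beside 68.2% of all tested miRNAs, namely miR-1307-3p, miR-1306-3p and miR-2110. Their medians ran from -0.86 in MDST8 to 0.45 in Hutu80. None of the 75 came from the list of mirtrons, miRNAs cut out by splicing, although 17 of its rows are in the table.

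Of the 48 tested, 11 were called in no line. They include miR-1301-3p, at 56.7 to 203 CPM over all 12 libraries, and both miR-1304-5p and miR-1307-5p. A p that misses the threshold does not show that levels were alike. Among the 27 untested, miR-3144-3p had 10 and 13 of its 32 counts in MDST8 and miR-4791 had 11 and 13 of its 39 there, miR-1293 had 10 and 12 of its 36 in SW1116, and miR-1244 had 12 and 8 of its 34 in SW1116 and 10 in Hutu80 replicate 1. These 4 were chosen after their values were seen and are given as counts only.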

How the data were processed

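Small RNA of vesicles from 6 lines was counted in 12 libraries, grouped by line from the labels. The deposited table holds whole-number counts per mature miRNA, and the other deposited table holds log2 values that match log2(CPM + 1) computed from these counts. Per the labels' protocols, libraries followed IsoSeek, which adds unique molecular identifiers. Per the submitters' processing notes, the build was hg38. Aligner, counter, annotation and collapsing of identifiers: not given in the sources used here, so intervals cover counting error only. Counts were filtered with filterByExpr, scaled by TMM factors (0.642 to 1.46) and fitted in edgeR 4.0.16 (R 4.3.3) with glmQLFit (robust) and glmQLFTest, 1 mean per line, no block; edgeR's common coefficient of variation was 0.304. The 318 tested miRNAs hold 99.7% of counts. Benjamini-Hochberg adjustment ran over all 318 in each comparison (threshold 0.05). The SE is the log2 difference divided by the square root of F. No fitted difference is given where a line has 3 counts or fewer. Exact intervals (Clopper-Pearson, 95%) came from SciPy 1.17.1. The fit was also run on simulated counts with 1 spread for all miRNAs and known changes in MDST8 alone. That run held no deviating library and no differences among the other lines, so it cannot judge calls that rest on such a library. Named were the 20 miRNAs with the highest mean CPM, up to 4 per line and direction whose 2 libraries lay beyond all others, the 5 smallest p-values across lines, those with 80% of line means in 1 line, those at the count minimum and listed ones; others were chosen after their values were seen. The miRNAs and lists were chosen with earlier results of these data known. Alternatives were RLE factors, library totals, no filter, 10 CPM in 2 libraries, DESeq2 1.42.0, limma-trend (limma 3.58.1), a replicate block, dropping the 10 most abundant miRNAs, and dropping each library in turn, the remaining library of its line being assumed to vary like the others.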

Additional observations from a re-analysis of the deposited data

How the results depend on the processing

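Of the 96 calls by line, 6 changed sign when 1 library was left out. Over the leave-one-out fits the log2 difference in HT55 ran from -0.68 to 2.85 for miR-5100, from -0.25 to 2.22 for miR-1260a, from -0.13 to 2.09 for miR-4454, from -1.57 to 2.31 for miR-7977 and from -1.09 to 2.46 for miR-7704, each lowest without HT55 replicate 2. That of miR-1307-3p in Hutu80 ran from -0.12, without Hutu80 replicate 2, to 0.86. Across lines 29 to 33 late-numbered miRNAs passed when 1 library was left out, against 31. By line the range was 7 to 16 in HT55 (15 with all libraries), 15 to 24 in Car-1 (21), 10 to 16 in MDST8 (16), 4 to 15 in SW1116 (13), 7 to 20 in Hutu80 (19) and 5 to 14 in RCM-1 (12). With no filter 12 were called in Hutu80. Of the 31 passing across lines, 24 did so in all 20 alternatives, some of them miRNAs that passed the filter through 1 line alone. The labels do not say whether replicate numbers pair the libraries. Deviations of same-numbered libraries correlated between -0.228 and 0.266 over 15 pairs of lines, with 5 over 0.1. Such values cannot settle whether libraries of the same number share a batch. With a replicate block 32 passed across lines, and 13 in HT55, 23 in Car-1, 16 in MDST8, 11 in SW1116, 19 in Hutu80 and 13 in RCM-1. Shares with the 10 most abundant miRNAs left out of the denominator were 13.9% in HT55, 6.08% in Car-1, 3.59% in MDST8, 2.73% in SW1116, 7.89% in Hutu80 and 2.83% in RCM-1. Without miR-1246 they were 1.31%, 2.07%, 0.607%, 0.423%, 1.68% and 0.592% in the same order. The Car-1 share was 2.70% with a minimum of 10 counts, 2.49% with 100 and 2.65% by mean CPM. At equal depth 69.6% of the 75 were expected in HT55, 83.6% in Car-1, 67.1% in MDST8, 63.7% in SW1116, 72.8% in Hutu80 and 67.7% in RCM-1. In the same order these were 44.1%, 62.2%, 44.1%, 40.5%, 55.4% and 44.8% of 150 miRNAs with 10 or more counts, and 93.5%, 94.9%, 86.4%, 86.8%, 85.2% and 90.4% of 34 with 100 or more. Requiring 3 counts gave 41.7%, 57.3%, 36.6%, 28.2%, 47.5% and 38.4%. Choosing by mean CPM (84 miRNAs, 71 of them shared) gave 58.2% in MDST8, 56.8% in SW1116 and 61.5% in RCM-1. With 2 libraries per line and 41 miRNAs under 100 counts, small differences were not detectable at this depth.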
